A study of Brassica rapa and Brassica oleracea and Brassica napus with 3 samples.

Results

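Chromosome C07 was followed gene by gene in the C subgenome of the allotetraploid *Brassica napus* (Cn) and in the C genome of the diploid *B. oleracea* (Co). Its genes were chosen by identifier (BnaC07G in *B. napus*, BolC07g in *B. oleracea*) and taken in identifier order, after 200 genes at each end were left out. This gave 5107 of 5507 Cn genes and 5678 of 6078 Co genes of C07, together 10785 of the 159066 genes in both libraries. C07 itself was singled out with its methylation levels and bins without a value already known, so those values are given as a description and support nothing further.

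DNA methylation was measured by whole-genome bisulfite sequencing of young leaves, with 1 library of *B. napus* cultivar ZS11 and 1 library of *B. oleracea* JZS. Leaves came from hydroponically grown seedlings, 14 d old by the labels in both species. The authors deposited the methylated fraction of cytosines in 12 bins per gene, without read depth. Of these bins 4 were upstream of the gene, 4 in the gene body and 4 downstream. Which of the CG, CHG and CHH contexts the fractions cover is not given in the sources used here. The labels attach an RNA extraction protocol to the *B. napus* library and a fixation step with formaldehyde to that of *B. oleracea*, whereas the methods describe bisulfite treatment of genomic DNA.

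Plant genes can carry methylated cytosines in their flanks, where transposable elements and other repeats are common, and in their bodies. Methylation of all contexts is typical of silenced transposons, and methylation of CG alone is typical of the bodies of many steadily expressed genes. Gene-poor, repeat-rich chromosome regions around centromeres are generally more methylated than gene-rich arms, so levels along a chromosome carry information that a chromosome mean hides.

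Each region of a gene was given the average of its valued bins, in percent, if at least 2 of 4 were valued. Over C07, Cn averaged 11.04% upstream, 5.25% in the gene body and 9.24% downstream, and Co averaged 11.8%, 8.27% and 10.6% in the same regions. Cn minus Co was -0.751 percentage points upstream, -3.02 points in the gene body and -1.39 points downstream. In all 3 regions this was the difference nearest to 0 among the 9 C chromosomes. The other 8 chromosomes lay between -1.84 and -1.21 points upstream, between -4.14 and -3.14 points in the gene body, and between -2.42 and -1.79 points downstream. The SD of the difference over the 9 chromosomes was 0.332, 0.354 and 0.304 points in these regions. With 1 library per species there was no replicate error and no test between species, so every difference below compares 2 libraries.

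The upstream level of C07 was low among its peers in both libraries. Cn at 11.04% was eighth of 9 (others 10.97% to 12.07%), and Co at 11.8% was the lowest of 9 (others 12.2% to 13.9%). Single genes spread widely around these means, with an SD between genes of 10.5% in Cn and 10.9% in Co upstream. The median gene body was at 0.807% in Cn, against 3.35% in Co.

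Consecutive genes were grouped into windows of 50, giving 102 windows in Cn and 113 in Co, and 7 Cn and 28 Co genes at the end of the list stood in no complete window. Window levels upstream spanned 3.85% to 19.9% in Cn (median 10.995%) and 5.28% to 24.5% in Co (median 10.994%). Gene body levels spanned 1.12% to 13.9% in Cn (median 4.82%) and 2.09% to 19.6% in Co (median 7.15%). Downstream levels spanned 3.52% to 17.4% in Cn (median 9.17%) and 3.46% to 21.1% in Co (median 9.92%). Within a window the genes differed from each other about as much as across the chromosome, with a median SD upstream of 9.81% in Cn and 10.1% in Co.

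Both libraries shared a gradient, with high levels at the low identifiers of C07 and low levels at the high identifiers. Across windows, the upstream level went with place in the list at r = -0.85 in Cn (n = 102 windows) and r = -0.73 in Co (n = 113 windows). For the gene body r was -0.80 in Cn and -0.77 in Co, and downstream it was -0.79 in Cn and -0.74 in Co. Genes before the middle of the list exceeded those after it upstream by 5.07 points in Cn and by 5.05 points in Co. In Cn this contrast was the largest of the 9 C chromosomes (others -3.96 to 4.29 points), and in Co it was the second largest (others -4.87 to 5.62 points).

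**Figure D1:**
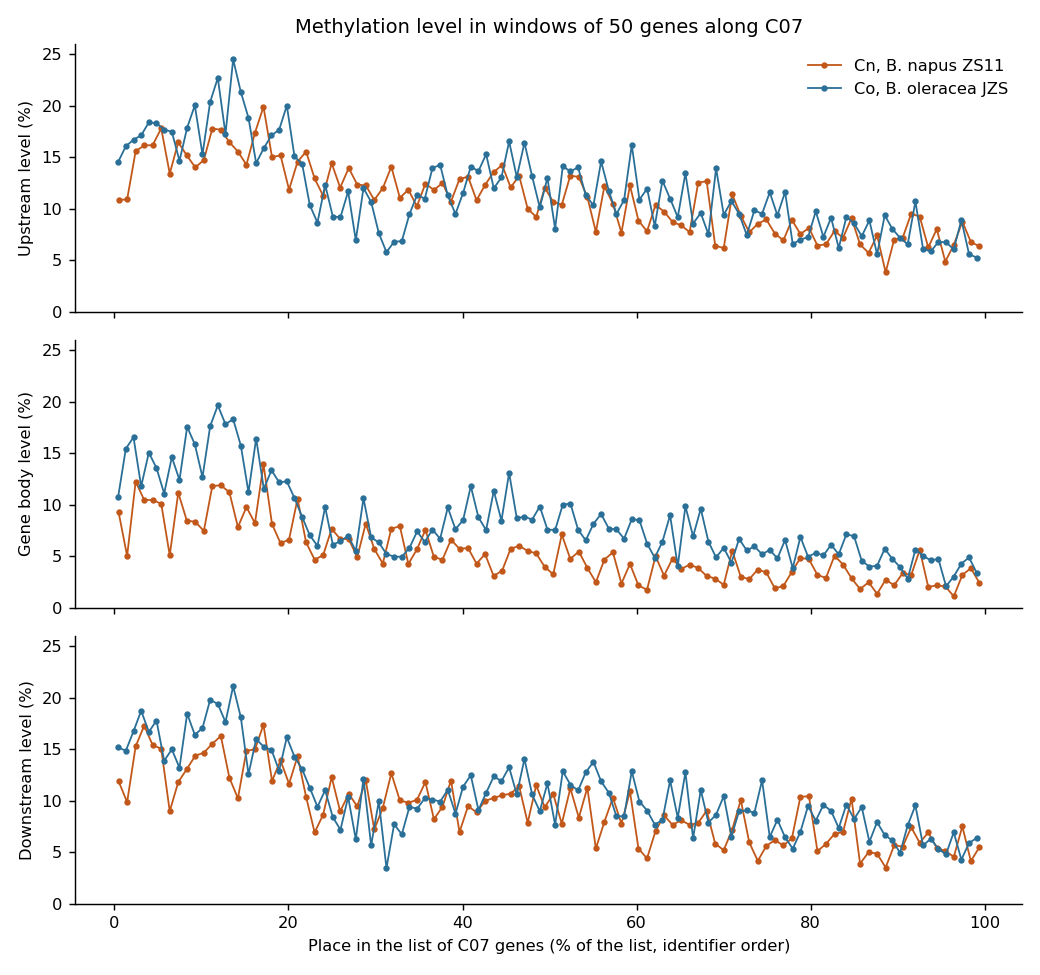
Mean methylation level (%, y axes) for the upstream region, the gene body and the downstream region in windows of 50 genes, against place in the list of C07 genes (% of the list, x axis); each point is 1 window, Cn in orange and Co in blue. Both curves are highest in the first 20% of the list (up to 19.9% upstream in Cn and 24.5% in Co), and Co dips below Cn upstream between about 20% and 35%.

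By deciles of the list the gradient was not even. Cn upstream levels were 14.6% and 16.4% in the first and the second decile, 12.7% in the third, 12.04% in the fourth, 12.13% in the fifth, 10.7% in the sixth, 9.41% in the seventh, 8.31% in the eighth, 6.78% in the ninth and 7.36% in the last. Co upstream levels were 17.1% and 19.0% in the first and the second decile, 11.2% in the third, 10.1% in the fourth, 13.7% in the fifth, 12.3% in the sixth, 10.5% in the seventh, 9.27% in the eighth, 8.07% in the ninth and 6.73% in the last. The Cn values thus stepped down in order apart from 3 rises, while the Co values dropped after the second decile and came up again in the fifth. In levels as deposited, Cn exceeded Co only in the third decile (1.55 points), the fourth decile (1.96 points) and the last decile (0.635 points).

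In levels as deposited, gene bodies kept Cn below Co in every decile. Cn gene bodies averaged 8.97% and 9.66% in the first and the second decile, against 13.9% and 15.3% in Co, the largest differences along with the fifth decile (4.77% in Cn and 9.62% in Co). The difference narrowed to -1.08 points in the third decile, -0.740 points in the fourth and -0.992 points in the last. A gene body at or above 20% was counted as highly methylated, which held for 493 of 4942 Cn genes (9.98%) and 877 of 5180 Co genes (16.9%). Their share was 19.3% and 22.9% in the first and the second decile of Cn, against 33.1% and 38.9% in Co. In the last decile it was 4.51% in Cn and 3.86% in Co, and the libraries were nearly level there.

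The window with the highest level of Cn was the same in all 3 regions. It ran from BnaC07G0105100ZS to BnaC07G0110000ZS, centred at 17.1% of the list, with 19.9% upstream, 13.9% in the gene body and 17.4% downstream. Among its 43 genes with a gene body level, 37.2% were highly methylated, and the levels of its gene bodies ran from 0 to 48.2% with a median of 10.7%. In Co the upstream and downstream maxima (24.5% and 21.1%) lay in the window from BolC07g009510.2J to BolC07g010000.2J at 13.6% of the list. In that window 19.7% of bins had no value, and 39 genes had a downstream level. The gene body maximum (19.6%) lay 2 windows earlier, from BolC07g008510.2J to BolC07g009000.2J at 11.9%, where 55.3% of 47 gene bodies were highly methylated.

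Even these windows mixed heavily methylated and nearly unmethylated genes. Of 32 genes with values in all 12 bins in the highest Cn gene body window, BnaC07G0106700ZS had 37.4% in its gene body, with 23.9% upstream and 29.1% downstream. BnaC07G0107300ZS had 37.2% and BnaC07G0107500ZS had 33.2% in the gene body. At the other extreme, BnaC07G0105300ZS, BnaC07G0108300ZS and BnaC07G0108600ZS had 0% in all 4 gene body bins. The first of these still had 11.75% upstream and the second 11.97%, while BnaC07G0108600ZS had 0.344% upstream.

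The same mixture was present in Co, although its lowest genes were not all at 0. Of 42 complete genes in the highest Co gene body window, BolC07g008650.2J had 38.4%, BolC07g008550.2J had 36.97% and BolC07g008530.2J had 36.1% in the gene body. The lowest gene bodies there were those of BolC07g008710.2J (0.199%), BolC07g008760.2J (0.765%) and BolC07g008940.2J (2.27%). BolC07g008710.2J nevertheless had 32.7% downstream and BolC07g008940.2J had 23.8% downstream, so a low body stood beside a methylated flank. The files give these genes no name or function.

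The lowest windows lay in the last part of the list, with 1 exception. In Cn the lowest upstream (3.85%) and downstream (3.52%) levels were both in the window from BnaC07G0470100ZS to BnaC07G0475000ZS at 88.6%, and the lowest gene body level (1.12%) was in the window from BnaC07G0510100ZS to BnaC07G0515000ZS at 96.4%. In Co the lowest upstream level (5.28%) was in the last window, from BolC07g058010.2J to BolC07g058500.2J, and the lowest gene body level (2.09%) in the window from BolC07g056010.2J to BolC07g056500.2J at 95.5%. The lowest downstream level of Co (3.46%) lay instead at 31.3%, from BolC07g019510.2J to BolC07g020000.2J, where 42.0% of bins had no value and only 26 genes had a downstream level.

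To compare places, each Cn window was first set against Co at the same percentage of the list. Levels of paired windows went together at r = 0.72 upstream, 0.74 in the gene body and 0.73 downstream (n = 102 windows, neighbours of which share the same gradient). Upstream this was eighth of the 9 C chromosomes (others 0.66 to 0.82), and the SD of the window difference, 2.83 points, was the largest of 9 (others 2.05 to 2.57 points). Cn was below Co upstream in 59 of 102 windows (57.8%), the lowest share of the 9 chromosomes (others 70.3% to 83.5%). In the gene body Cn was below Co in 92 of 102 windows (90.2%), eighth of the 9 chromosomes (others 89.8% to 97.6%). Downstream it was below Co in 73 of 102 (71.6%), the lowest share of 9 (others 74.7% to 88.0%).

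Differences of at least 5 points were counted against the same count over all 9 chromosomes. Upstream, Cn was lower by 5 points in 8 of 102 C07 windows, against 5.65% of 974 windows of all C chromosomes, and higher by 5 points in 2 of 102, against 0.513%. In the gene body Cn was lower in 20 of 102 windows, against 27.1%, and higher in 0, against 0.103%. Downstream Cn was lower in 9 of 102 windows, against 11.4%, and higher in 1, against 0.103%. For Cn lower, the C07 shares were 7.84% upstream, above the background, and 19.6% in the gene body and 8.82% downstream, both below it.

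The most positive upstream difference was 7.64 points in the Cn window from BnaC07G0180100ZS to BnaC07G0185000ZS at 31.8% of the list, with 14.1% in Cn and 6.44% in Co. The same window had the most positive downstream difference, 6.49 points, with 12.7% in Cn and 6.16% in Co. The most positive gene body difference, 2.96 points, was in the next window, from BnaC07G0185100ZS to BnaC07G0190000ZS. In these windows at most 7% of Cn bins had no value, against 30.6% and 25.1% of Co bins. The most negative differences upstream (-6.98 points) and downstream (-9.001 points) were both in the window from BnaC07G0090100ZS to BnaC07G0095000ZS at 14.2%, where Cn had 15.6% upstream and Co had 22.5%. In the gene body the most negative, -10.6 points, was in the window from BnaC07G0025100ZS to BnaC07G0030000ZS near the start, with 5.03% in Cn and 15.6% in Co.

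Equal percentages of 2 lists of unequal length need not mark the same genes. The 2 lists were therefore also aligned by the number of coding exons of each gene, which uses no methylation value. On C01 and C02, where 1381 and 608 gene pairs are known from the homoeologous tetrads of the study, the alignment placed 93.8% and 100% of these pairs within 50 genes, whereas pairing by percentage placed 21.0% and 34.4% of them so closely. Values paired by percentage, those above included, can therefore set a window against a neighbour of its match. No gene pairs of C07 itself were available for this check, and the order of identifiers was taken as the order along the chromosome. On C07 its score was 2888 in the forward direction, against 82.0 with the Co list turned round, and the aligned place of a window differed by up to 3.09% of the list, about 3 windows, from its place by percentage. With this pairing the window correlation was 0.79 for upstream levels, 0.78 for gene bodies and 0.80 for downstream levels. Each Cn window then matched between 16 and 85 Co genes, with a median of 54.

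Against its lower mean over C07, Cn had more upstream methylation than Co in a stretch of consecutive windows. By alignment it held 13 windows in a row, from BnaC07G0125100ZS to BnaC07G0190000ZS in Cn (650 genes, 20.6% to 33.3% of the list) and from BolC07g014660.2J to BolC07g021810.2J in Co (716 genes, 22.3% to 34.9%). Paired by percentage it held 10 windows, from BnaC07G0145100ZS to BnaC07G0195000ZS. On the other 8 chromosomes the longest such runs had 2 to 5 windows by alignment and 2 to 6 by percentage. Run length depends on the mean difference of a chromosome, which upstream lay between -1.84 and -1.21 points there, against -0.751 points on C07. Runs were not counted after scaling of the libraries. By alignment, 4 of 102 C07 windows had Cn higher upstream by at least 5 points, against 0.513% of all windows, which is 5 windows in all. Cn was lower by 5 points in 3 of 102, against 3.39%. In the gene body, aligned Cn windows were lower in 16 of 102, against 24.1%, and higher in 0, against 0.205%, and downstream they were lower in 2 of 102, against 5.65%, and higher in 0, against 0.205%.

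**Figure D2:**
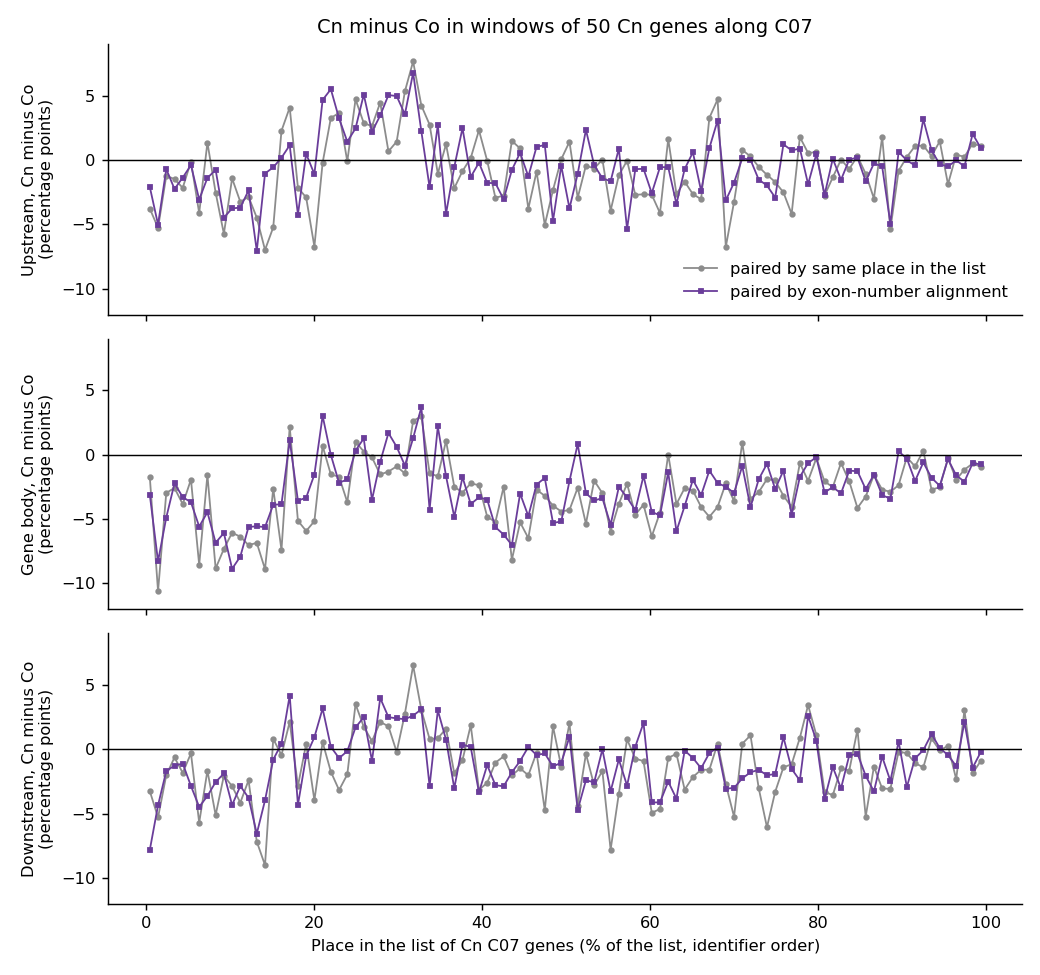
Cn minus Co (percentage points, y axes) for the upstream region, the gene body and the downstream region of each window of 50 Cn genes against its place in the Cn list (%, x axis), with Co taken from the same percentage of the list (grey) or from the exon-number alignment (purple). Upstream, 13 aligned windows in a row lie above 0 between 20.6% and 33.3%, and most gene body points lie below 0.

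Within the stretch the window differences upstream ran from 1.42 to 6.77 points with a median of 3.54 points, and elsewhere from -7.05 to 3.16 points with a median of -0.699 points. The largest was in the window from BnaC07G0180100ZS to BnaC07G0185000ZS (14.1% in Cn), matched to 49 Co genes from BolC07g020740.2J to BolC07g021220.2J (7.32%). The most negative by alignment was in the window from BnaC07G0085100ZS to BnaC07G0090000ZS (16.5% in Cn), matched to BolC07g009860.2J to BolC07g010480.2J (23.5%). Co bins without a value made up 28.2% at the largest difference and 18.7% at the most negative. For the gene body the aligned extremes were 3.68 points from BnaC07G0185100ZS to BnaC07G0190000ZS and -8.86 points from BnaC07G0070100ZS to BnaC07G0075000ZS. Downstream they were 4.16 points from BnaC07G0105100ZS to BnaC07G0110000ZS and -7.82 points from BnaC07G0020100ZS to BnaC07G0025000ZS, the last with only 16 Co genes. In these downstream windows 18.0% and 41.1% of Co bins had no value.

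Over its genes the stretch had an upstream level of 12.9% in Cn and 9.06% in Co, whereas the rest of C07 had 10.8% in Cn and 12.1% in Co. Cn was thus above its own level elsewhere, and Co below its own, but the rest of C07 takes in both ends of the gradient. From the second to the fifth decile Cn had 16.4%, 12.7%, 12.04% and 12.13%, without a dip and return. Co had 19.0%, 11.2%, 10.1% and 13.7% in the same deciles. The upstream medians were 11.5% in Cn and 5.94% in Co inside the stretch, and 8.26% in Cn and 9.65% in Co outside. An upstream region under 1% was found in 17.0% of Cn and 24.96% of Co genes inside, and in 23.8% of Cn and 17.6% of Co genes outside. Gene bodies inside the stretch averaged 6.67% in Cn and 6.50% in Co, against 5.05% in Cn and 8.495% in Co outside. Their medians inside were lower in Cn, at 1.14% in Cn and 1.96% in Co, and gene bodies under 1% made up 48.6% in Cn and 37.4% in Co. Highly methylated gene bodies made up 12.4% in each library inside, and 9.62% in Cn and 17.5% in Co outside.

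By bin, the excess of Cn in the stretch lay in both flanks. In the bin farthest upstream Cn had 14.4% and Co 10.1%, and in the bin just before the gene Cn had 9.63% and Co 7.03%. In the 4 gene body bins Cn ranged from 6.05% to 6.61% and Co from 5.87% to 6.62%. In the bin just after the gene Cn had 7.215% and Co 5.998%, and in the bin farthest downstream Cn had 12.6% and Co 9.70%. Outside the stretch Co was the higher library in all 12 bins, with 11.8% in Cn and 13.1% in Co in the bin farthest upstream.

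**Figure D3:**
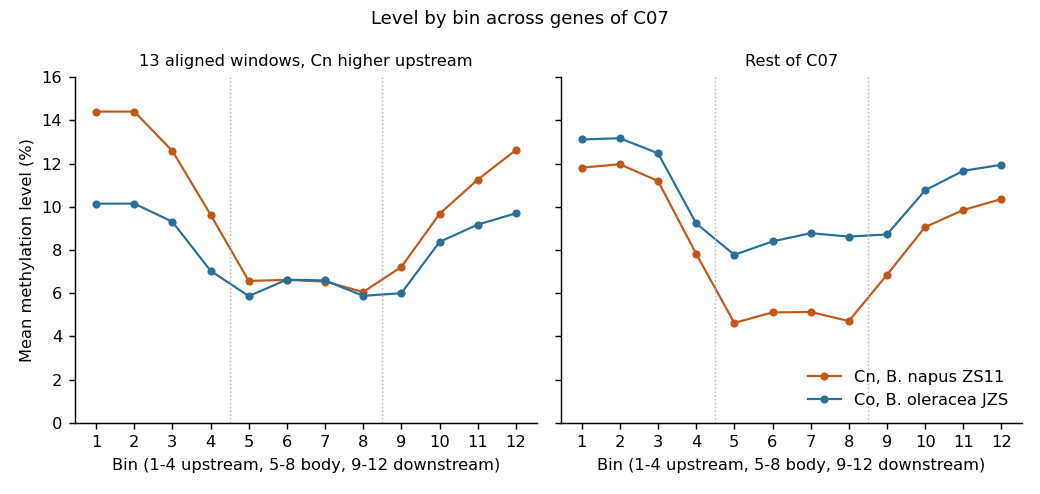
Mean methylation level (%, y axis) in each of the 12 bins of a gene (x axis, bins 1 to 4 upstream, 5 to 8 gene body, 9 to 12 downstream), for Cn in orange and Co in blue, in the 13 aligned windows with Cn higher upstream (left) and on the rest of C07 (right). Cn lies above Co in the flank bins of the stretch, with 14.4% in Cn and 10.1% in Co in bin 1, and below Co in every bin elsewhere.

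Matched genes were compared as well. Ungapped aligned runs with at least 5 equal exon numbers gave 1839 gene pairs on C07, and on C01 and C02 84.3% and 81.1% of known pairs in such runs were matched to the same gene. Over all C07 pairs with an upstream level (1756), Cn averaged 9.40% and Co 9.62%, a mean difference of -0.220 points (other chromosomes -0.844 to -0.449 points). Cn was lower in 53.2% of these pairs, a share inside the range of the other chromosomes (51.5% to 54.6%). The pairs were uneven along the list, with 78 and 102 in the first and the second decile and 251 and 261 in the sixth and the seventh. Means over pairs thus give the first deciles less weight. Inside the stretch 127 pairs had 12.02% in Cn and 8.46% in Co, a mean difference of 3.57 points with an SD of 10.7 points between pairs and a median of 0.893 points. Cn was the higher gene in 74 of these pairs and Co in 52. For gene bodies of pairs in the stretch the order was the other way, with Cn higher in 41 of 128 pairs and Co in 76. Their mean difference was -0.790 points. Gene bodies of pairs elsewhere on C07 had the same order, with Cn higher in 453 of 1597 and Co in 1052, at a mean of -1.84 points. Over all C07 pairs Cn gene bodies were lower in 65.4%, inside the range of the other chromosomes (63.7% to 68.3%). Upstream, the 1629 pairs elsewhere had 9.20% in Cn and 9.71% in Co. Pairs were sparser inside the stretch, with 127 among its 650 Cn genes, against 1629 among 4457 Cn genes elsewhere. The share of C07 pairs matched to the same gene is not known.

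Large differences between matched genes were then counted. Cn exceeded Co upstream by at least 10 points in 32 of 127 pairs of the stretch, and Co exceeded Cn by as much in 8. Over all 14745 pairs of the C chromosomes these shares were 11.7% for Cn higher and 13.7% for Cn lower, and over the 1756 pairs of C07 they were 11.2% and 10.9%. By deciles of the Cn list the excess of Cn in pairs was in the third decile (12.1% in Cn and 8.61% in Co, 116 pairs), whereas the 162 pairs of the fourth decile had 10.2% in Cn and 11.5% in Co. Most of the fourth decile lies beyond the end of the stretch. Since the stretch was picked for its upstream difference, none of these upstream values is independent of that choice.

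Bins without a value separated the libraries on C07 more than on any other C chromosome. Cn had no value in 3.24% of its C07 bins, the lowest of the 9 chromosomes (others 3.92% to 6.75%), and Co in 9.16%, the highest (others 5.35% to 7.16%). Of the genes, 19 in Cn and 195 in Co had no value at all, and 4396 in Cn (86.1%) and 4418 in Co (77.8%) had a value in all 12 bins. At least 20% of bins were without a value in 1 of 102 Cn windows, against 3.18% of all Cn windows, and in 17 of 113 Co windows, against 7.52% of all Co windows. The single Cn window, from BnaC07G0135100ZS to BnaC07G0140000ZS at 23.0% of the list, had 20.3%.

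**Figure D4:**
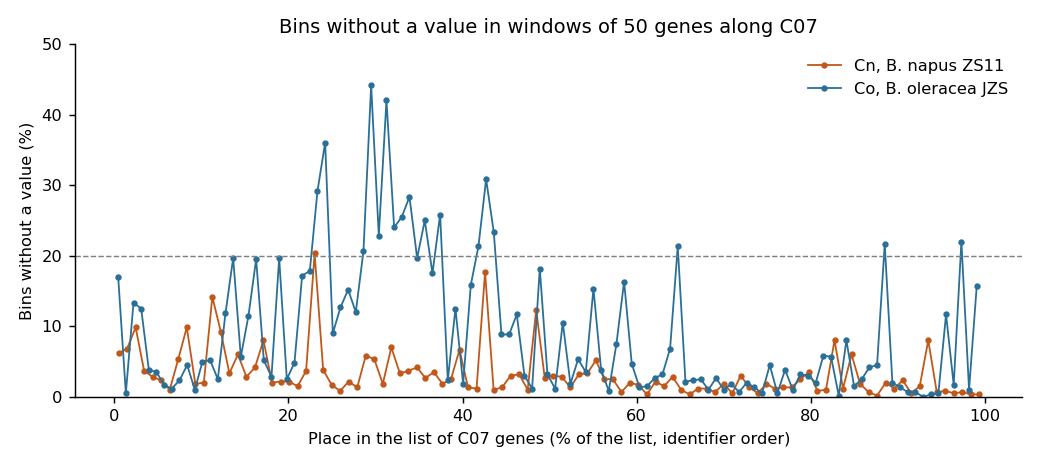
Share of the bins of a window of 50 genes that had no value (%, y axis) against place in the list of C07 genes (%, x axis), Cn in orange and Co in blue, with a dashed line at 20%. Cn stays at or below 20.3%, while Co reaches 44.2% and has 14 windows in a row at or above 10% between 25.5% and 37.9% of the list.

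The Co gaps were concentrated. The longest run of Co windows with at least 10% of bins without a value had 14 windows, from BolC07g016510.2J to BolC07g023500.2J (25.5% to 37.9% of the list), against 2 to 8 windows on the other chromosomes. These 700 genes were 12.3% of the C07 genes of Co and held 32.3% of its bins without a value. Of them 65 had no value, 312 had values in some bins and 323 in all 12. The gaps were spread over the regions, with 24.3% of upstream, 22.7% of gene body and 24.9% of downstream bins. The longest Cn run by the same measure was 1 window.

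This run overlapped the stretch in which Co had less upstream methylation than Cn. In the 700 Co genes the upstream level was 9.93%, against 12.01% in the other Co genes of C07, and the 323 genes with all bins valued had 9.48%. In the 13 aligned windows of the stretch 4.51% of Cn bins and 24.2% of Co bins had no value, and 9 of the 13 had at least 20% of Co bins missing. The 4 windows with fewer gaps in Co had a mean upstream difference of 3.401 points. Every window of the stretch was picked for a positive upstream difference, so this mean could only be positive. These 4 still had 8.67% to 16.8% of Co bins without a value, against a median of 4.5% over the Co windows of C07. Counting bins without a value as 0 over all of C07 brought Cn minus Co upstream to -0.0106 points. Among genes with all 12 bins valued the stretch had 12.2% upstream in Cn and 8.90% in Co. The part of mapping or depth in these values was not tested, because no read depth accompanies the fractions.

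Across all of C07 the share of bins without a value and the upstream level of a window had r = 0.35 over 102 Cn windows and r = -0.01 over 113 Co windows. Gaps of Cn and Co windows at the same percentage of the list had r = 0.29. Runs of genes without any value were short in Cn, where the longest covered 4 genes from BnaC07G0267300ZS to BnaC07G0267600ZS, followed by the pairs BnaC07G0094100ZS with BnaC07G0094200ZS and BnaC07G0238400ZS with BnaC07G0238500ZS. In Co 12 such runs had 5 or more genes. The longest covered 10 genes each, from BolC07g034980.2J to BolC07g035070.2J at 58.1% of the list and from BolC07g052030.2J to BolC07g052120.2J at 88.1%, and the third 9 genes from BolC07g057120.2J to BolC07g057200.2J at 97.1%. None of these 3 lay in the stretch.

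The 3 regions of a window moved together in both libraries. Upstream and gene body levels had r = 0.83 in Cn and 0.87 in Co, and upstream and downstream levels had r = 0.86 in Cn and 0.88 in Co (102 and 113 windows). Neighbouring windows were alike, with r = 0.78 in Cn and 0.76 in Co between the upstream level of a window and that of the next. Windows whose genes had more coding exons had lower gene body levels, with r = -0.53 in Cn and -0.40 in Co. The share of genes with 1 coding exon went with the gene body level at r = 0.29 in Cn and -0.20 in Co. Gene body level and exon number both changed along the list, and place in the list was not held fixed. The mean number of coding exons was 3.96 in the first decile and 4.91 in the last in Cn, against 4.69 and 5.27 in Co. Genes with 1 coding exon made up 25.05% of the first decile in Cn and 9.86% in Co. Coding rows were laid out differently in the libraries and counted by a different rule in each. Whether the gene models or the counting gave this difference was not tested. The share of valued bins at exactly 0 ran against the gene body level, with r = -0.86 in Cn and -0.88 in Co, and over C07 it was 23.8% in Cn and 19.4% in Co.

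**Figure D5:**
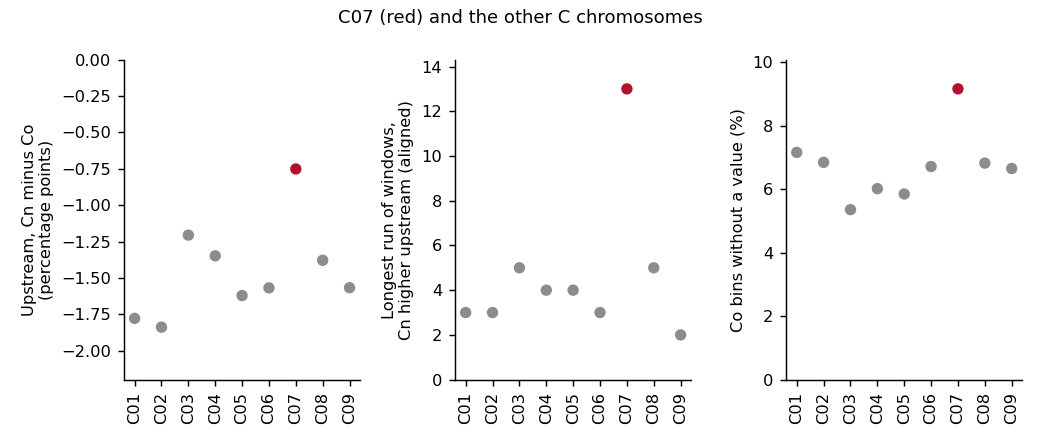
Upstream Cn minus Co (percentage points, left), longest run of aligned windows with Cn higher upstream (windows, middle) and share of Co bins without a value (%, right) for the 9 C chromosomes, 1 point each, C07 in red. C07 has the difference nearest to 0 (-0.751), the longest run (13 windows, against 2 to 5) and the largest share of gaps (9.16%).

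The ends left out did not stand apart in the same way on both sides. In Cn the last 50 genes left out at the start had 12.9% upstream and the first 50 kept had 10.9%, and in Co these values were 14.2% and 14.6%. At the other end the last 50 genes kept had 6.07% and the first 50 left out had 7.04% in Cn, against 5.03% and 9.17% in Co. The first 50 genes kept had 6.17% of bins without a value in Cn and 17.0% in Co.

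Scaling each library to its own mean over all C genes turned the sign of Cn minus Co on C07 in all 3 regions, to 0.6001 points upstream, 0.397 points for gene bodies and 0.504 points downstream. The sign of the chromosome mean is therefore relative to the overall difference between the libraries. Over all C genes the gene body mean was 5.38% in Cn and 8.98% in Co. Signs by decile, window or gene pair, and runs of windows with Cn higher, are given without this scaling. They are relative to the same overall difference. With 1 library each, differences between species, cultivars, plants and libraries cannot be told apart.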

How the data were processed

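Young leaves of 14-d-old seedlings were represented by 1 BS-seq library of *B. napus* ZS11 and 1 of *B. oleracea* JZS; a further library of the series was not used here. The authors filtered reads with Fastp, mapped them with BatMeth2 to the ZS11 genome according to the methods, and deposited for each annotated feature the methylated fraction (0 to 1) of 12 bins. The rows carry each species' own gene identifiers, so which genome the *B. oleracea* reads were mapped to could not be settled, and Co levels and Co bins without a value depend on it. Cytosine context, coverage minimum and conversion rate are not given in the sources used here, and the depth behind a fraction is unknown, so no interval could be given.

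Gene rows of C07 were sorted by identifier, 200 genes were left out at each end, and fractions were converted to percent. A region level needed 2 of 4 bins. Full windows of 50 genes were paired at the same percentage of the list (linear interpolation between Co windows), or through a global alignment of coding exon numbers (gap score -1, assumed share of equal numbers 0.6). The alignment was checked with gene pairs of C01 and C02 from 1998 rows of the tetrad table of the study; a criterion of 80% within 50 genes was met. An aligned window needed 10 Co genes. Steps were tested on simulated data with known levels and known pairs. Python 3.11.15, numpy 2.4.6, pandas 2.3.3, numba 0.67.0 and matplotlib 3.10.9 were used.

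No statistical test was run, as each species had 1 library; correlations across windows are descriptions. The genes named were the ends of the windows with the highest and the lowest level and with the most positive and the most negative difference, the ends of the 3 longest runs without a value, and the 3 highest and 3 lowest complete gene bodies of the highest gene body window. The ends of the long stretches, of the window with most Cn gaps and of matched Co genes were named after their values were seen. The genes, lists and measures were chosen with earlier results of these data known. Alternatives varied averaging, required bins, gaps, window size, ends, scaling, pairing, genes and thresholds.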

Additional observations from a re-analysis of the deposited data

How the results depend on the processing

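Of 139 alternative values, 76 moved by less than the spread between chromosomes (for counts, less than 1.5 times), 60 moved by more and 3 turned sign. Scaling each library to its own C mean turned Cn minus Co to 0.6001 points upstream, 0.397 for gene bodies and 0.504 downstream, by construction relative to the whole C genome, and left 5 gene body and 6 downstream windows past 5 points. Medians over genes gave -0.396 points upstream and -2.54 in the gene body, r = 0.61 for gene bodies, and 23 upstream and 16 downstream windows. Where 3 values stand together, their order is upstream, gene body, downstream. Counts of windows past 5 points are of 102 unless another total is given. Counting bins without a value as 0 gave -0.0106, -2.51 and -0.606 points, with r = 0.66 upstream and 0.66 downstream. Windows of 25 genes gave r = 0.57, 0.58 and 0.58, with 38, 60 and 31 of 204 windows past 5 points. Many gaps were then found in 3 of 204 Cn and 39 of 227 Co windows. Windows of 100 genes gave r = 0.79, 0.84 and 0.83, with 3, 9 and 2 of 51 windows past 5 points. Many gaps were then found in 0 of 51 Cn and 7 of 56 Co windows. The exon-number alignment gave r = 0.79 upstream and 0.80 downstream, with 2 downstream windows. Genes with at least 2 coding exons gave -3.55 points in the gene body and -1.87 downstream, r = 0.65 downstream and 6 of 78 upstream windows. Windows under 20% of gaps gave r = 0.78 upstream and 0.77 downstream, and Spearman's coefficient downstream was 0.67. A threshold of 3 points gave 28, 41 and 31 windows, and 10 points gave 0, 1 and 0. Windows with at least 10% of gaps numbered 4 in Cn and 41 in Co, and with 50% 0 in Cn and 0 in Co. With the ends kept, 2 of 110 Cn windows had at least 20%.

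A further 3 settings were chosen after seeing the data. Genes with all 12 bins valued gave r = 0.81 upstream and 0.77 downstream, with 5 of 87 downstream windows. Without the third and the fourth decile, Cn minus Co was -1.33, -3.51 and -1.80 points, with r = 0.84 upstream and 0.80 downstream. The upstream shift follows from dropping deciles in which Cn was above Co. Gene pairs gave -0.220, -1.76 and -0.537 points. The cause of these shifts was not tested. Genes were paired, but libraries could be neither paired nor replicated because each species had 1 library. The unknown depth limits every level.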
